A study of Homo sapiens with 108 samples.

Results

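The histone genes were described here in 6 human melanoma lines exposed to a 2 Gy dose of either X-rays or carbon ions. Members were all probes whose single gene symbol names a histone H1, a clustered H2A, H2B, H3 or H4 gene, H2AX, H2AZ1, H2AZ2, H3-3B, MACROH2A1 or MACROH2A2, which gave 64 probes for 55 of the 18278 genes with such a probe. The lines were MeWo, HMV-II, HMV-I, Colo679, C32TG and 92-1, established tumour lines with no transgene named in the labels. In each line, RNA was taken from unirradiated cells (0 Gy) and 1 h and 3 h after 2 Gy, separately for carbon ions and for X-rays. Each of these 36 groups was measured on 3 single-colour CodeLink arrays. The unirradiated cells have no time in the labels, the beams had separate unirradiated sets, and both times of a beam shared 1 set. Nothing in the labels tells separate cultures from repeat arrays, so tests inside 1 line measure array-to-array spread, which may be technical. The number of arrays limits the precision.

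Histones pack DNA into nucleosomes, built on a core of H2A, H2B, H3 and H4 and joined by linker histone H1. Replication-dependent histone genes lie in clusters, are transcribed mainly in S phase, and give mRNAs that end in a stem-loop bound by SLBP in place of a poly(A) tail. These mRNAs are known to be lost quickly when DNA synthesis stops, as it can after ionising radiation. Variant histones such as H2AZ and H3.3 are made throughout the cell cycle from polyadenylated mRNAs, and phosphorylation of H2AX marks broken DNA. Some clustered genes, H2BC12 and H2BC21 among them, also give polyadenylated transcripts. The primer used for labelling is not given in the sources used here. Clustered histone genes are near-identical copies, so a probe may take signal from several of them and its gene is uncertain.

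The 55 genes comprised 45 replication-dependent genes (50 probes), 7 variant genes (11 probes) and 3 germ-line linker genes (H1-6, H1-7 and H1-8). Of the replication-dependent genes, 40 lie on chromosome 6 and 5 on chromosome 1, while the 7 variants lie on 7 different chromosomes. A probe was tested when at most 10% of its values were missing, its mean lay above the 40th percentile of all probes and every group had a value. That left 38 probes of 32 genes: 26 probes of 24 replication-dependent genes, all 11 variant probes, and the probe of H1-8, an oocyte linker histone. Of the 26 other probes, 17 were too dim and 9 had too many missing values, and none of the linker genes H1-1 to H1-5 was tested. The values below describe the tested probes and not the whole family.

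Promoters are shown for H2BC12, H2BC5, H4C8 and H1-10, because each was called after carbon ions and together they cover H2B, H4 and a linker variant. RefSeq (GRCh38.p14) gave 57 entries for 52 of the 55 genes, each from 250 bases before to 50 after a transcription start. Capitals mark 3 motifs searched on both strands: the octamer ATTTGCAT, which is bound by OCT1 in H2B promoters, CCAAT, and the TATA-box letters TATAAA, which on opposite strands can overlap.
H2BC12: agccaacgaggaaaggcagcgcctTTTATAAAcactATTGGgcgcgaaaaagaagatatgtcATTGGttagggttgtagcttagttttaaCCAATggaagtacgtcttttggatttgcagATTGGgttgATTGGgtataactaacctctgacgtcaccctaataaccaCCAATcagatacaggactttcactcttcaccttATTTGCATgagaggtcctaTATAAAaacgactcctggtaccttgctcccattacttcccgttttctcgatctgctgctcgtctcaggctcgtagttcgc
H2BC5: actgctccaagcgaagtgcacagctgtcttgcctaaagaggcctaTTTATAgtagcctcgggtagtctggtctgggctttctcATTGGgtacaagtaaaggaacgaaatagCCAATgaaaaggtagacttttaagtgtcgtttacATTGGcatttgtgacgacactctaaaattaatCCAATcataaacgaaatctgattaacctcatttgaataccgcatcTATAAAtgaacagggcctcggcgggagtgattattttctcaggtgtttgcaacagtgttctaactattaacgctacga
H4C8: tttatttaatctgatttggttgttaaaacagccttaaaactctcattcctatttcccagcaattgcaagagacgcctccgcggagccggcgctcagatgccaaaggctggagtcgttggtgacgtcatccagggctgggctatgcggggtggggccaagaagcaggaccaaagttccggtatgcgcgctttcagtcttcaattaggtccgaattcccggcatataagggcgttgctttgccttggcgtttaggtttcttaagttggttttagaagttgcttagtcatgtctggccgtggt
H1-10: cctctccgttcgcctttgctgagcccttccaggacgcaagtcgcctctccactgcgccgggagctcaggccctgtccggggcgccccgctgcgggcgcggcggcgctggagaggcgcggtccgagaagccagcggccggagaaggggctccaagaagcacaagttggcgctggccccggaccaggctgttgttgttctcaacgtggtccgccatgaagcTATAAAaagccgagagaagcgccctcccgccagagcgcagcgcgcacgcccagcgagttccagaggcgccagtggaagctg
They lie at chr6:27146806-27147105 on the minus strand (H2BC12), chr6:26157871-26158170 on the plus strand (H2BC5), chr6:26285485-26285784 on the minus strand (H4C8) and chr3:129316237-129316536 on the minus strand (H1-10). H2BC12 and H2BC5 each had 2 entries, of which 1 is shown. In the H2BC12 entry shown the octamer began 49 bases before the start and a TATA motif 30 bases before it. In its other entry these were 46 and 27 bases. H2BC5 held 4 CCAAT motifs and H1-10 1 TATA motif, 31 bases before the start, and in H4C8 none of the letters searched lay in this window.

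Histone families differed in these letters. The octamer was found in 11 of 15 promoter entries of replication-dependent H2B genes and 5 of 8 of H2A genes, against 1 of 8 of H3 genes and 0 of 9 of H4 genes. Over all 35116 promoters of the same length it was found in 1.77%. CCAAT was in all 15 H2B, all 8 H2A and all 8 H3 entries, in 3 of 9 H4 entries and in 34.6% of all promoters. Among the 8 entries of the variants, the octamer was found in 1, that of H3-3B. These matches describe the sequences and are not evidence of binding in these cells.

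Array quality and identity bear on what follows. Replicate arrays of a group correlated at r = 0.987 to 0.998 across probes. CDKN1A, the p21 cell-cycle inhibitor induced by p53, was 1.20 ± 0.74 (log2, SD, n = 6 lines; limma adjusted p = 0.0064) above its unirradiated level at 3 h after carbon ions and 1.18 ± 0.81 above it (adjusted p = 0.0071) after X-rays. Of 10 melanocyte genes on the arrays, 8 to 10 lay above the 40th percentile of all probes in 5 lines. In HMV-I 6 did, with TYR at -0.61, MLANA at -1.19, TYRP1 at -1.39 and SOX10 at -0.80 below that level of -0.41. Of those 6, GPR143 (-0.24), S100B (-0.25) and OCA2 (-0.051) lay close to the level. SOX10 was low in every line, at -0.48 in 92-1 and at most 0.91, in C32TG. Of 7 fibroblast genes, 3 to 6 lay above the level in each line, of 7 keratinocyte genes 1 or 2, and of 5 leukocyte genes 1 or 2. Of these lists, 10, 6, 2 and 1 genes passed the filter, and none of those was called after irradiation across lines.

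Unirradiated levels of histone probes differed widely between lines, on a log2 scale of intensity after quantile normalization between arrays. The highest line lay above the lowest by a median of 1.55 over the 38 histone probes, 1.71 over the replication-dependent probes and 1.31 over the variant probes, against 0.92 over all 32060 tested probes. H2BC12 ranged from 0.48 in Colo679 to 4.72 in HMV-I, with 1.39 in 92-1, 2.29 in C32TG, 3.02 in HMV-II and 3.24 in MeWo. H1-10, a linker variant, was also lowest in Colo679 (1.94) and highest in HMV-I (4.86). The levels of H2AZ1, a variant found at promoters, were closer together, from 7.66 in C32TG to 8.79 in MeWo. HMV-I held the highest level for 18 of the 38 probes and C32TG the lowest for 16. Fewer expressing cells and less RNA per cell cannot be told apart in such bulk samples.

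The unirradiated sets of both beams also differed from each other within a line, which sets the scale for the changes after irradiation. Over 199 pairs of line and histone probe with a value on every array, the median absolute difference between sets was 0.20 and the largest was 1.60. The same median was 0.12 at 1 h and 0.15 at 3 h after carbon ions, and 0.089 and 0.13 after X-rays. Within lines, limma called 86 of the 199 differences between sets, 48 higher and 38 lower in the carbon-ion set. Those calls were 11 of 33 in 92-1 (15.1% of all probes), 8 of 30 in C32TG (43.5%), 13 of 33 in Colo679 (13.8%), 23 of 36 in HMV-I (46.9%), 6 of 33 in HMV-II (22.1%) and 25 of 34 in MeWo (70.3%). Across the 6 lines, by contrast, 0 histone probes were called between sets, with 4 at an unadjusted p under 0.05 (0% of all probes called).

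In HMV-I, the probes whose sets differed by over 1 on the log2 scale were all replication-dependent. H3C4, a clustered H3 gene, stood at 1.30, 1.52 and 1.53 in the carbon-ion set and at 3.01, 3.02 and 3.14 in the X-ray set. Probe 18112 of H4C4, a clustered H4 gene, stood at 1.60, 1.61 and 1.75 against 3.07, 3.11 and 3.21. In neither case did the sets overlap, and the difference was -1.60 ± 0.088 (SE; adjusted p = 2.0e-11) for H3C4 and -1.48 ± 0.080 (adjusted p = 1.7e-11) for H4C4. H4C3, H4C8, H4C14, H2BC4 and H2BC11 were lower in the same set, with differences from -1.53 to -1.04 (-1.29 and -1.44 for the pair of H4C8 probes). A second H4C4 probe, 183013, differed the other way, by 0.62.

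In MeWo both directions were present. Probe 18112 of H4C4 stood at 1.48, 1.57 and 1.59 in the carbon-ion set and at 2.82, 2.84 and 3.05 in the X-ray set. H2BC12 stood at 3.75, 3.84 and 3.91 against 2.56, 2.64 and 2.72, the opposite order, a difference of 1.19 ± 0.077 (SE; adjusted p = 1.1e-10). H3C3 differed by -1.44. In both genes with values given, the sets did not overlap.

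**Figure D1:**
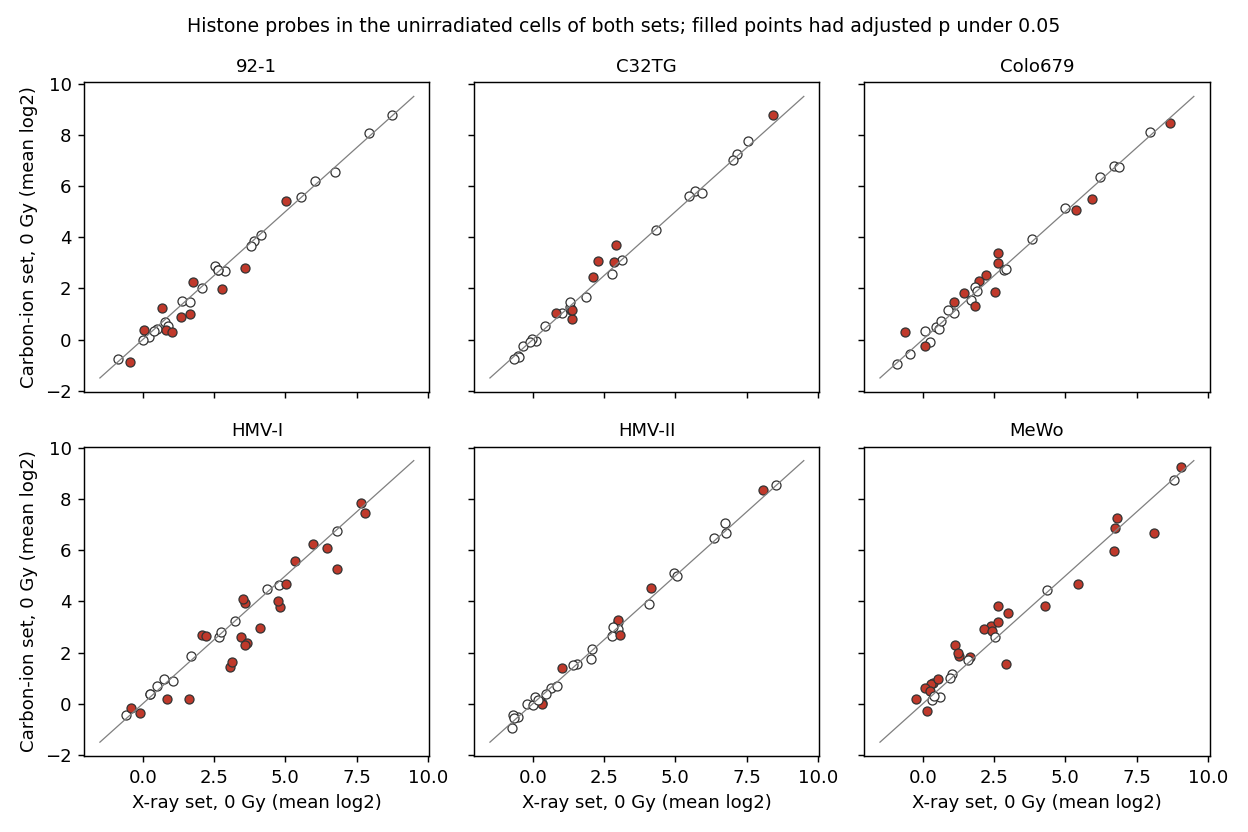
Mean log2 intensity of each histone probe in the unirradiated cells of the carbon-ion set (vertical) against the X-ray set (horizontal), 1 panel per line, with the line of equal values. Filled points had an adjusted p under 0.05 within that line and number 23 of 36 in HMV-I, 25 of 34 in MeWo and 6 of 33 in HMV-II.

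After irradiation, changes were taken as irradiated minus unirradiated cells of the same line and beam, on the log2 scale, and tested over the 6 lines with limma, with Benjamini-Hochberg adjustment over all 32060 probes. A probe is called higher or lower when its adjusted p was under 0.05. At 1 h after carbon ions, 5 of the 38 histone probes were called higher and 0 lower. Of all 32060 probes, 10.7% were called in either direction and 4.67% were called higher. The histone share was near the first of these and above the second, a difference that was not tested. The 5 genes were H2BC12, H2BC13, H3C4, H3C8 and the variant H1-10, with changes of 0.18 to 0.33. Some were dim: unirradiated H2BC13 stood at -0.52 in HMV-I and -0.28 in C32TG, and H3C4 at -0.34 in C32TG. The filter level was -0.41, taken before normalization. H2BC12, H2BC13, H3C4 and H3C8 lacked 5.6%, 0.93%, 0.93% and 6.5% of their values. With no missing value allowed the count was 4, and of these 5 genes only H1-10 was tested. The count varied with single arrays and lines: it was 1 without the arrays numbered 1 or 2, 3 without those numbered 3, and 1 without 92-1, Colo679 or MeWo. It was 2 without HMV-I, 3 without HMV-II or without the filter on level, and 7 without C32TG. It was 10 (1 of them lower) with the values as deposited, 12 (1 of them lower) with median centring and 2 (1 of them lower) when quantile normalization came before the filter.

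H2BC12 encodes an H2B protein and held the largest of these changes. In the carbon-ion set its log2 intensity in Colo679 was 0.42, 0.57 and 0.75 without irradiation and 1.12 and 1.25 at 1 h, where 1 array had no value. In HMV-I it was 4.51, 4.64 and 4.78 without and 5.0, 5.01 and 5.05 at 1 h. In these lines the groups did not overlap, nor did they in C32TG (2.44, 2.46 and 2.49 against 2.52, 2.66 and 2.66) or MeWo (3.75, 3.84 and 3.91 against 3.96, 4.03 and 4.23). In HMV-II the values were 3.29, 3.86 and 4.27 without and 4.11, 4.29 and 4.47 at 1 h, and in 92-1 they were 0.33, 0.59 and 1.19 against 0.72, 0.80 and 0.89. The groups overlapped in these last lines. Over lines the change was 0.33 ± 0.19 (SD, n = 6), a 1.25-fold increase with a 95% interval of 0.19 to 0.46, higher in 6 of 6 lines (limma adjusted p = 0.0084). Without the arrays numbered 2 the adjusted p was 0.059.

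H2BC13, another clustered H2B gene, rose by 0.23 ± 0.13 (SD, n = 6 lines; adjusted p = 0.021), from 0.014 in C32TG to 0.39 in MeWo. H1-10 rose by 0.22 ± 0.13 (adjusted p = 0.018), from 0.047 in HMV-I to 0.39 in Colo679, where 1.94, 2.12 and 2.12 stood against 2.41, 2.43 and 2.52. H3C8, a clustered H3 gene, rose by 0.19 ± 0.097 (adjusted p = 0.034) in 6 of 6 lines. H3C4 rose by 0.18 ± 0.12 (adjusted p = 0.043) in 5 of 6 lines, the exception being C32TG at -0.0061. The H2BC13 call was lost without the arrays numbered 1 or 2 and without 92-1, Colo679, HMV-I or MeWo, and the H1-10 call without the arrays numbered 1 and without 92-1, Colo679 or MeWo. The calls of H3C8 and H3C4 were lost without any 1 replicate number and without each of 5 lines, all but C32TG, with an adjusted p of up to 0.14 and 0.18. Processing mattered too. When quantile normalization came before the filter, H2BC13, H1-10, H3C8 and H3C4 were not called (adjusted p = 0.092, 0.051, 0.12 and 0.21), while H2BC12 was (0.023). Without the filter on level, H3C8 (0.056) and H3C4 (0.084) were lost. H3C4 was also lost after median centring (0.078) and on the deposited scale (0.11), where the other calls named here held.

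At 3 h after carbon ions, 3 histone probes were called higher and 0 lower, of 38, while 13.4% of all probes were called in either direction and 6.43% of all probes were called higher. H4C8, a clustered H4 gene, H2BC5, a clustered H2B gene, and again H2BC12 passed. The histone share was below the first and near the second of these, so these calls do not set histone genes apart. The count was 0 without HMV-II and 1 without 92-1, Colo679 or HMV-I, 5 without C32TG or without the arrays numbered 2, 10 with median centring and 1 with quantile normalization before the filter. With the values as deposited it was 3, 1 of them lower, and H4C8, H2BC5 and H2BC12 were not among these calls.

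H4C8 (probe 263030) showed the largest change at 3 h after carbon ions. In HMV-I its log2 intensity was 2.15, 2.21 and 2.52 without irradiation and 2.77, 2.78 and 2.94 at 3 h. In HMV-II it was 2.02, 2.14 and 2.21 without and 2.53, 2.62 and 2.70 at 3 h. In Colo679 it was 1.73, 1.79 and 1.91 without and 1.92, 2.03 and 2.31 at 3 h, narrowly apart. In 92-1 it was 1.98, 1.98 and 2.00 against 2.07, 2.13 and 2.23, in C32TG 1.11, 1.15 and 1.26 against 1.30, 1.31 and 1.38, and in MeWo 1.96, 1.97 and 1.98 against 2.04, 2.13 and 2.20. All 6 lines thus kept the groups apart, with steps of 0.15 to 0.54. The probe is shown because it was called on these same arrays, so this separation adds no evidence of its own. Within lines it was called in 3 of 12 comparisons of line and beam at 3 h, all higher. The mean was 0.30 ± 0.18 (SD, n = 6 lines), a 1.23-fold increase (95% interval 0.15 to 0.44; limma adjusted p = 0.016), but without HMV-II the adjusted p was 0.054 and with the values as deposited it was 0.072. The second H4C8 probe, 160103, stood at 0.089 and was not called.

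H2BC5 rose by 0.22 ± 0.13 (SD, n = 6 lines; adjusted p = 0.026) at 3 h after carbon ions, in 6 of 6 lines, from 0.076 in C32TG to 0.43 in Colo679. In Colo679 its arrays read 2.27, 2.28 and 2.35 without irradiation and 2.63, 2.66 and 2.90 at 3 h, with no overlap. H2BC12 rose by 0.22 ± 0.16 (adjusted p = 0.037), from 0.044 in C32TG to 0.41 in HMV-II, on 1 array at 3 h in 92-1 and 2 in HMV-II. Both calls were lost without 92-1, Colo679, HMV-I or HMV-II, each taken alone, with an adjusted p of up to 0.078 for H2BC5 and 0.11 for H2BC12. With the values as deposited both were lost too (limma adjusted p = 0.072 for H2BC5 and 0.084 for H2BC12). The same held with quantile normalization before the filter (0.071 and 0.091). Without the filter on level the H2BC12 call was lost (0.053).

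**Figure D2:**
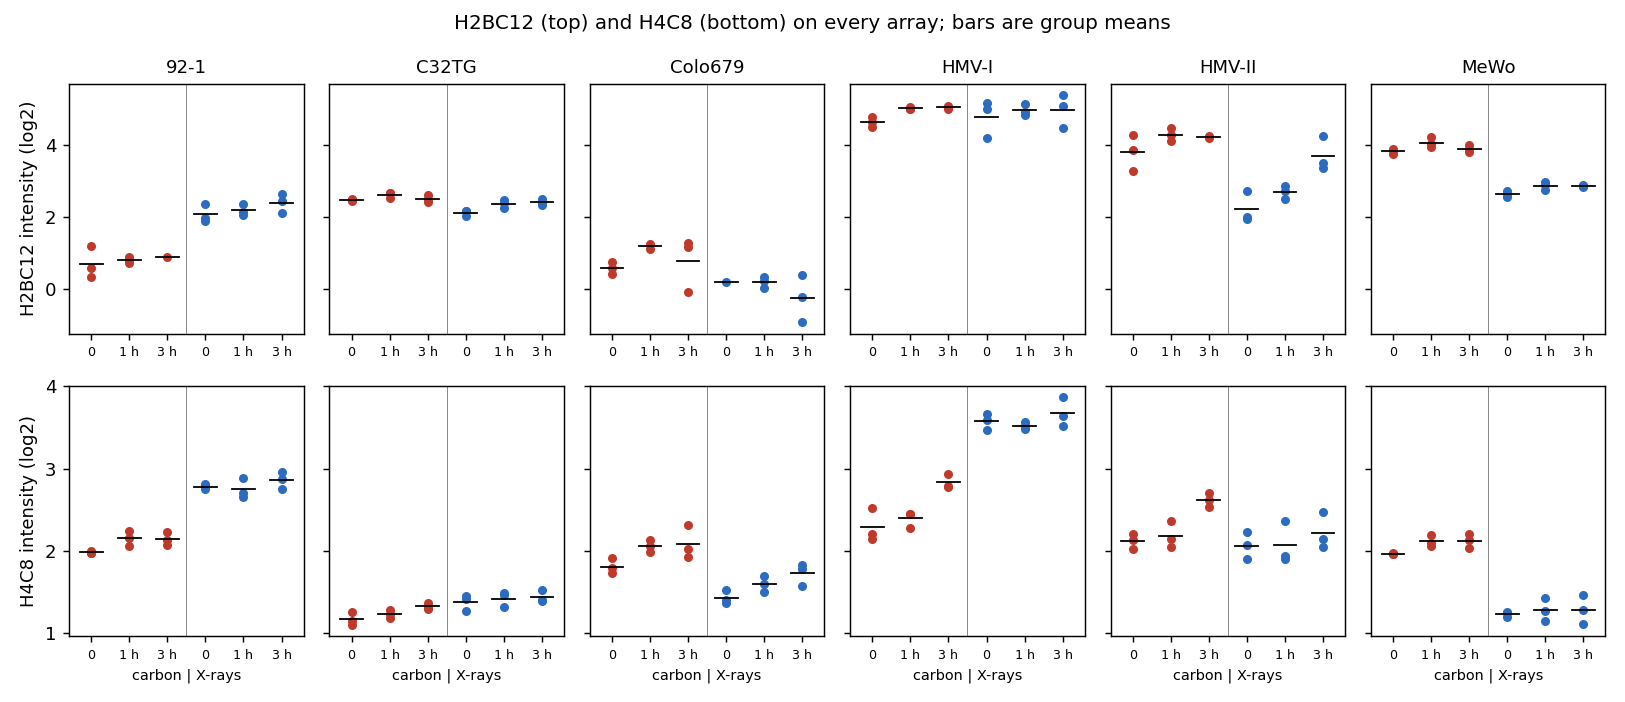
Log2 intensity of H2BC12 (top) and of H4C8 probe 263030 (bottom) on every array, 1 panel per line, for unirradiated cells (0) and 1 h and 3 h after carbon ions (red) or X-rays (blue), with bars at group means. In HMV-I, H4C8 rose from 2.15 to 2.52 without irradiation to 2.77 to 2.94 at 3 h after carbon ions, while its X-ray set ran from 3.47 to 3.87.

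Not every clustered gene stood higher after carbon ions. H2BC15, a clustered H2B gene, was lower in 6 of 6 lines at 1 h, at -0.23, and stood at -0.15 at 3 h, without being called. H3C3 stood at -0.17 at 3 h. Probe 18112 of H4C4 stood at -0.11, from -0.82 to 0.63 over lines, while its other probe, 183013, stood at 0.21 (adjusted p = 0.13). Over the 26 replication-dependent probes, changes ran from -0.23 to 0.33 at 1 h, with 21 above 0, and from -0.17 to 0.30 at 3 h, with 23 above 0.

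At 1 h after X-rays, limma called 0 of the 38 histone probes, with 4 at an unadjusted p under 0.05, and 1.15% of all probes. The smallest adjusted p-values were those of H3C4 (0.19 ± 0.075, SD, n = 6 lines; adjusted p = 0.055), H2BC12 (0.21 ± 0.15; adjusted p = 0.090) and H2AC25, a clustered H2A gene (0.10 ± 0.092; adjusted p = 0.27). H3C4 stood higher in 6 of 6 lines, from 0.12 in HMV-I to 0.29 in C32TG, and none of the 3 passed. With median centring 1 probe was called.

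At 3 h after X-rays, limma again called 0 of 38, with 10 at an unadjusted p under 0.05, while 7.15% of all probes were called. H2BC13 stood at 0.19 ± 0.11 (SD, n = 6 lines; adjusted p = 0.054), H3-3B, which encodes the replacement histone H3.3, at 0.13 ± 0.041 (adjusted p = 0.056), and H3C8 at 0.15 ± 0.034 (adjusted p = 0.071). Each was higher in 6 of 6 lines and none passed. The largest mean change over lines was that of H2BC12, at 0.34, which was not called either. Without the arrays numbered 2 there were 2 calls, with median centring 8, all of them higher, and 1 each with the values as deposited, with no missing value allowed, without the arrays numbered 3, and without C32TG or HMV-I.

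**Figure D3:**
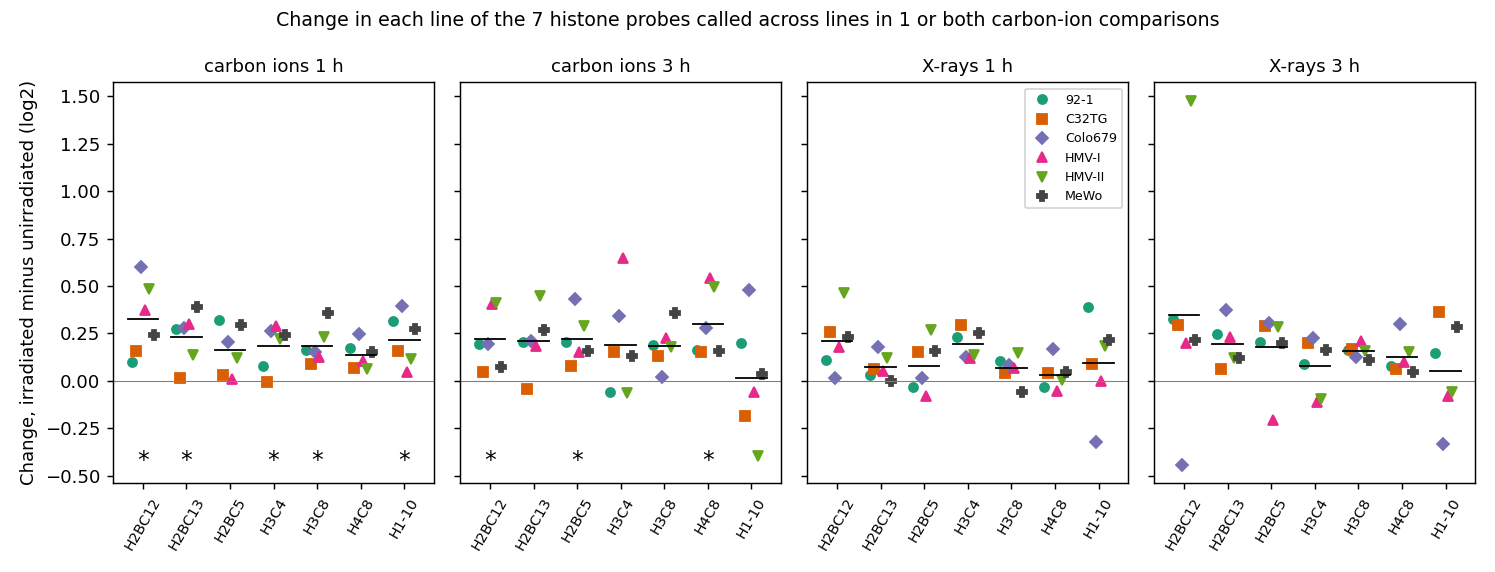
Change of 7 histone probes in each of the 6 lines (symbols), irradiated minus unirradiated in log2, for each beam and time, with bars at the mean over lines and stars at adjusted p under 0.05 across lines. H2BC12, H2BC13, H3C8 and H1-10 lay above 0 in 6 of 6 lines at 1 h after carbon ions, and H1-10 ran from -0.40 to 0.48 at 3 h.

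All 11 probes of the 7 variant genes were tested, and the 1 call across lines was that of H1-10 at 1 h after carbon ions. By 3 h after carbon ions the H1-10 changes ran from -0.40 in HMV-II to 0.48 in Colo679, with a mean of 0.013 ± 0.31 (SD, n = 6 lines; adjusted p = 0.94). H2AX, whose protein marks broken DNA once phosphorylated, stood at 0.10 ± 0.070 at 1 h and at -0.095 ± 0.17 at 3 h after carbon ions, and at -0.018 ± 0.18 and -0.033 ± 0.27 after X-rays, with adjusted p-values of 0.11 to 0.94. Phosphorylation was not measured here. H2AZ1 stood between -0.046 and 0.072 in the 4 comparisons. The representative H2AZ2 probe, for the other H2A.Z gene, stood between -0.015 and 0.061, and its probe 188093 at 0.14 ± 0.088 after carbon ions and 0.18 ± 0.12 after X-rays at 3 h, in 6 of 6 lines each (adjusted p = 0.071 and 0.072). Probe 499052 of H2AZ2 stood at 0.069 at 1 h after carbon ions. Within lines at 3 h, probes 499052 and 188093 were each called higher in 2 of 12 comparisons.

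H3-3B stood at 0.075 and -0.064 after carbon ions (1 h and 3 h) and at 0.072 and 0.13 after X-rays. MACROH2A1, a large H2A variant linked to silent chromatin, was measured by 3 probes, of which the brightest stood between -0.016 and 0.015, and MACROH2A2, its relative, stood between -0.018 and 0.067. The other MACROH2A1 probes disagreed at 1 h after carbon ions. Probe 195102 stood at -0.076, lower in 5 of 6 lines, and probe 255041 at 0.079, higher in 5 of 6. Within lines at 3 h, probe 195102 was called lower in 1 of 10 comparisons and MACROH2A2 in 1 of 12. Probe 255041 was called higher in 1 of 6. No MACROH2A1 or MACROH2A2 probe was called across lines.

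Set side by side as classes, replication-dependent probes had a higher median of the mean change over 6 lines than variant probes in each comparison after quantile normalization. At 1 h after carbon ions the medians were 0.10 for the 26 replication-dependent and 0.069 for the 11 variant probes, with 0.0057 over all probes. At 3 h after carbon ions they were 0.11, 0.013 and 0.0040, at 1 h after X-rays 0.060, 0.020 and 0.0051, and at 3 h after X-rays 0.087, 0.024 and 0.0046. The replication-dependent median lay above 0 in 6 of 6 lines in each comparison but X-rays at 3 h, where HMV-I stood at -0.0071. Colo679 held the highest value at 1 h (0.21) and 3 h (0.21) after carbon ions and at 3 h after X-rays (0.22). The 2 classes were not tested against each other and were not matched for intensity. The brightest replication-dependent probes were those of H3C3, H4C3 and H2AC25, with mean log2 intensities of 6.86, 6.09 and 6.02 before normalization. After carbon ions they stood at -0.043, -0.028 and 0.14 at 1 h and at -0.17, 0.080 and 0.14 at 3 h, in that order. The order of the classes depended on line and scaling. At 1 h the variant median was the higher in C32TG and HMV-I after carbon ions. After X-rays it was so in C32TG, Colo679 and HMV-I. At 3 h it was the higher in 92-1 after carbon ions and in HMV-I after X-rays. Without HMV-II the medians at 1 h after X-rays were 0.055 and 0.058, replication-dependent first. With the values as deposited they were 0.096 and 0.098 at 1 h after carbon ions, and 0.056 and 0.071 after X-rays. With median centring the replication-dependent and variant medians were 0.124 and 0.125 at 1 h and 0.146 and 0.143 at 3 h after carbon ions, where all probes stood at 0.035 and 0.060. After X-rays they were 0.074 and 0.091 at 1 h, with the variants higher, and 0.15 and 0.056 at 3 h.

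**Figure D4:**
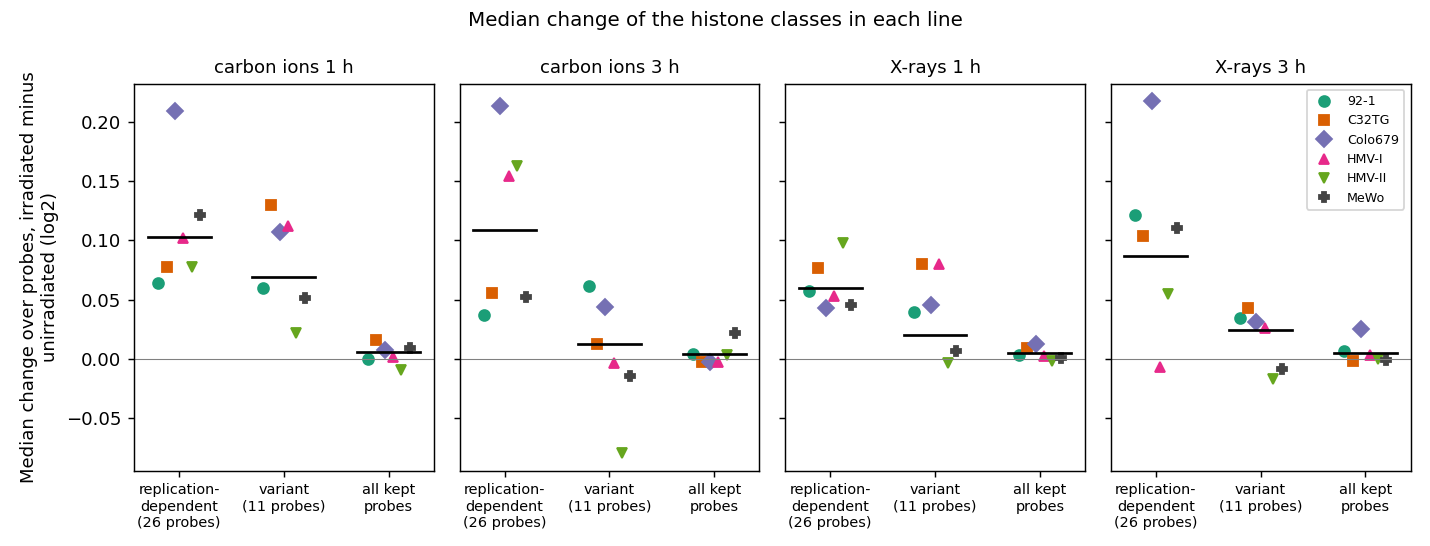
Median change over the 26 replication-dependent probes, the 11 variant probes and all tested probes, in each line (symbols), irradiated minus unirradiated in log2, with bars at the median over probes of the mean over lines. At 3 h after carbon ions the replication-dependent medians ran from 0.037 in 92-1 to 0.21 in Colo679, and the variant medians from -0.080 in HMV-II to 0.062 in 92-1.

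The direct comparisons between beams and between times gave no call. Limma called 0 histone probes for the carbon-ion change minus the X-ray change at 1 h (1 at an unadjusted p under 0.05) and 0 at 3 h (3 at an unadjusted p under 0.05), where 0% of all probes were called at either time. Between 3 h and 1 h, averaged over beams, 0 histone probes were called, with 4 at an unadjusted p under 0.05, against 4.51% of all probes. Calls made after 1 beam and not the other are therefore not shown to differ across lines. For H2BC12 the beam difference at 3 h was -0.12 and for H4C8 it was 0.17.

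Within single lines, in tests added after the data were seen, 4 differences between beams were called. At 1 h it was probe 18112 of H4C4 in MeWo (1 of 34 probes, 1.85% of all probes), against 0 of 33 in 92-1 (0%), 0 of 30 in C32TG (0.0205%), 0 of 33 in Colo679 (0.01%), 0 of 36 in HMV-I (0.0576%) and 0 of 33 in HMV-II (0.059%). At 3 h they were H2AX in C32TG (1 of 30, 0.683%), H1-10 in Colo679 (1 of 33, 0.71%) and H3C4 in HMV-I (1 of 36, 2.63%), against 0 of 33 in 92-1 (0.00346%), 0 of 33 in HMV-II (0.264%) and 0 of 34 in MeWo (1.4%). H3C4 read 1.30, 1.52 and 1.53 without irradiation and 2.05, 2.10 and 2.15 at 3 h after carbon ions in HMV-I, with no overlap. Its X-ray set read 3.01, 3.02 and 3.14 without and 2.82, 2.88 and 3.14 at 3 h, so that all irradiated carbon-ion arrays stayed below it.

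Within single lines, with 18 arrays each, the counts at 1 h were small except in MeWo. Of 398 tests of a histone probe in a line and beam, 13 were called at 1 h, 11 higher and 2 lower. After carbon ions these were 8 of 34 probes in MeWo (10.9% of all probes called), 2 of 33 in Colo679 (2.34%), 1 of 30 in C32TG (9.54%), 1 of 36 in HMV-I (4.61%), 0 of 33 in 92-1 (3.87%) and 0 of 33 in HMV-II (0.788%). After X-rays only H2BC12 in C32TG was called, 1 of 30 (7.41%), with 0 of 33 in 92-1 (1.64%), 0 of 33 in Colo679 (0.626%), 0 of 36 in HMV-I (1.04%), 0 of 33 in HMV-II (0.146%) and 0 of 34 in MeWo (0.623%). In MeWo at 1 h after carbon ions, H2BC13 rose by 0.39, H3C8 by 0.36, H2BC11 and H2BC5 by 0.29 each, H1-10 by 0.27 and H2BC12 by 0.24, while H4C4 (probe 18112) fell by 0.59 and H4C3 fell by 0.35. Without the arrays numbered 2, 1 call at 1 h was left over all lines.

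At 3 h, 55 of 398 tests were called, 44 higher and 11 lower. After carbon ions they were 11 of 33 in Colo679 (18.3% of all probes), 8 of 36 in HMV-I (14.6%), 8 of 34 in MeWo (21%), 6 of 33 in HMV-II (9.2%), 3 of 30 in C32TG (8.44%) and 2 of 33 in 92-1 (8.5%). After X-rays they were 10 of 33 in Colo679 (19.2%), 3 of 30 in C32TG (7.02%), 2 of 33 in HMV-II (3.19%), 2 of 34 in MeWo (3.64%), 0 of 33 in 92-1 (4.95%) and 0 of 36 in HMV-I (14.6%). All 11 and all 10 calls of Colo679 were higher, where 9.89% and 10% of all its probes were called higher. All calls of C32TG after both beams and of MeWo after X-rays were higher too. Over all probes, 1168 of 2471 and 630 of 2055 calls of C32TG were higher (carbon ions first), and 616 of 1071 of MeWo. In HMV-II, 4 of 6 calls after carbon ions and both calls after X-rays were lower. Over all its probes, 1412 of 2650 and 498 of 919 calls were lower. Without the arrays numbered 2 the count at 3 h was 14, and without those numbered 1 or 3 it was 24 and 27.

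**Figure D5:**
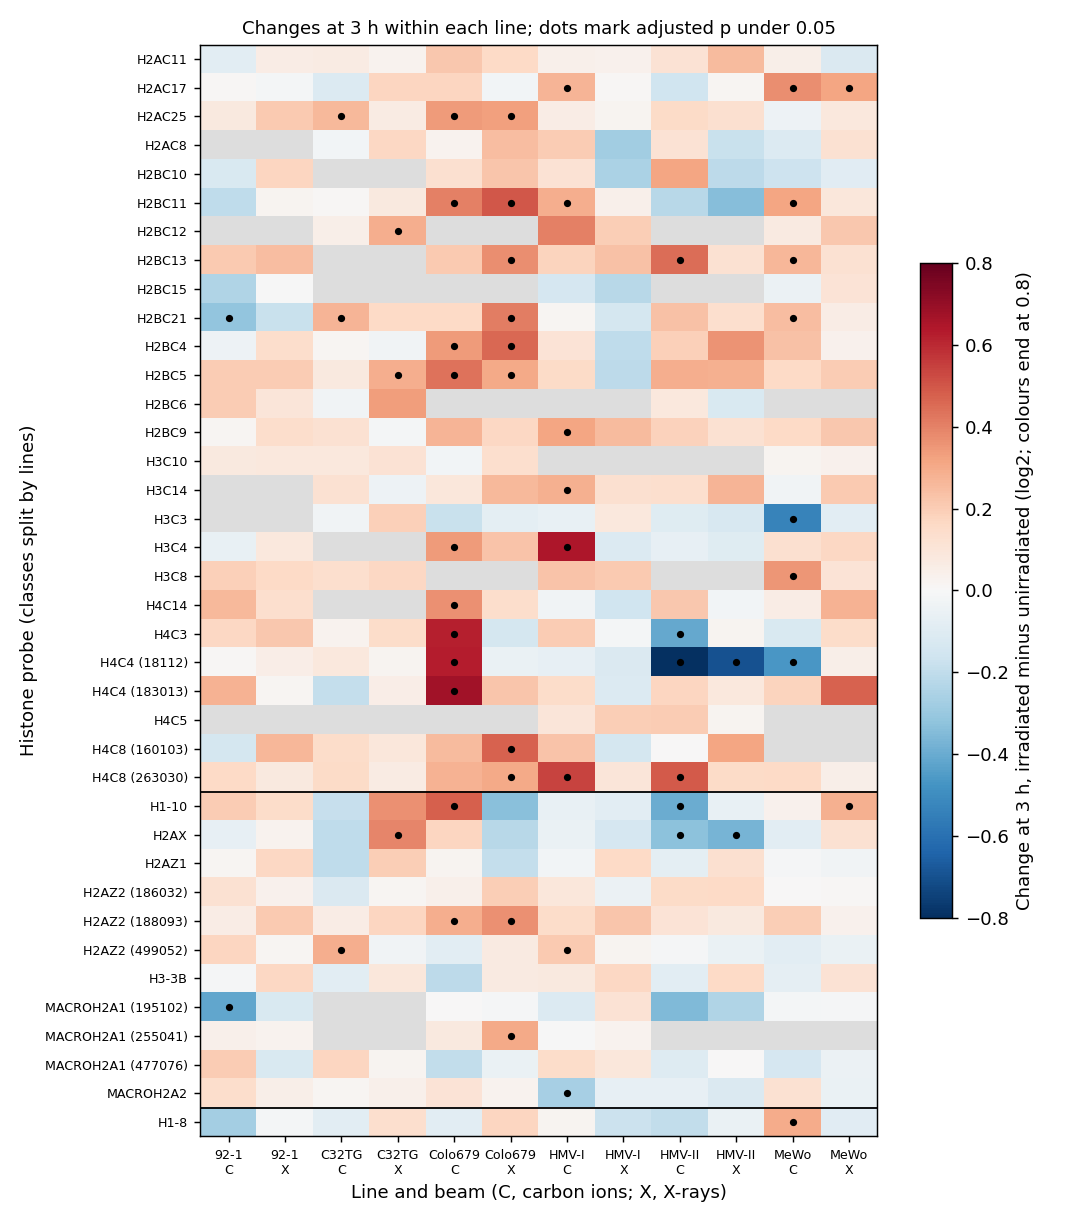
Change at 3 h of each histone probe (rows) in each line and beam (columns), irradiated minus unirradiated in log2, with dots where the adjusted p within the line was under 0.05 and grey where a value was missing. All 11 dots of Colo679 after carbon ions and all 10 after X-rays lie on higher values, and probe 18112 of H4C4 is higher in Colo679 and lower in HMV-II and MeWo.

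In Colo679, 5 probes were called higher at 3 h after both beams, each against its own unirradiated set. H2BC11, a clustered H2B gene, read 2.97, 2.98 and 3.02 without irradiation and 3.35, 3.37 and 3.46 at 3 h in the carbon-ion set. In the X-ray set it read 2.57, 2.61 and 2.69 without and 3.11, 3.11 and 3.15 at 3 h, so neither pair of groups overlapped. Its rises were 0.40 (adjusted p = 4.8e-04) and 0.50 (adjusted p = 1.0e-04). H2BC5 rose by 0.43 and 0.30, H2BC4 by 0.34 and 0.46, H2AC25 by 0.34 and 0.33, and H2AZ2 (probe 188093), a variant, by 0.29 and 0.37, carbon ions first. Both H4C4 probes and H4C3 of Colo679 were called after carbon ions, at 0.63, 0.67 and 0.62, and not after X-rays, and their difference between beams was not called.

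Probe 18112 of H4C4 and H2AX moved against that direction in HMV-II. Probe 18112 of H4C4 read 2.78, 2.97 and 3.00 without irradiation and 2.02, 2.10 and 2.18 at 3 h after carbon ions, and 2.78, 2.99 and 3.14 against 2.15, 2.18 and 2.50 after X-rays. Both falls, by 0.82 and 0.70 on the log2 scale, left no overlap (adjusted p = 9.0e-04 and 0.0082). The other H4C4 probe of HMV-II, 183013, stood at 0.17 and 0.082, carbon ions first, and was not called. H2AX fell by 0.33 (adjusted p = 0.011), from 3.82, 3.92 and 3.93 to 3.53, 3.58 and 3.59 after carbon ions, and by 0.37 (adjusted p = 0.013), from 3.97, 4.06 and 4.17 to 3.65, 3.71 and 3.71 after X-rays. In C32TG, H2AX rose by 0.39 at 3 h after X-rays, from 2.76, 2.97 and 2.98 to 3.17, 3.20 and 3.51. In MeWo, probe 18112 of H4C4 fell by 0.47 at 3 h after carbon ions and was not called after X-rays, and probe 183013 stood at 0.18 and 0.47 with no call. There H2AC17, a clustered H2A gene, rose after both beams, by 0.37 and 0.32.

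Over lines and beams at 3 h, H2BC11, H2BC21 and probe 18112 of H4C4 were each called in 4 of 12 comparisons. H2BC11 was higher in all 4, H2BC21, an H2B gene on chromosome 1, was higher in 3 and lower in 1, and the H4C4 probe was higher in 1 and lower in 3. In 92-1, H2BC21 read 2.21, 2.26 and 2.26 without irradiation and 1.79, 1.99 and 2.0 at 3 h after carbon ions, a fall by 0.32 on the log2 scale (adjusted p = 0.022). In Colo679 it read 2.58, 2.59 and 2.71 without and 2.91, 2.95 and 3.26 at 3 h after X-rays, a rise of 0.41 (adjusted p = 0.0071). Neither pair of groups overlapped, and the direction was opposite between these lines.

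H2BC12 showed its largest step in HMV-II after X-rays. It read 1.96, 2.01 and 2.73 without irradiation and 3.38, 3.50 and 4.26 at 3 h, a difference of group means of 1.48 with no overlap, which was not tested within that line because the probe had a missing value on another array. The carbon-ion set of HMV-II read 3.29, 3.86 and 4.27 without irradiation, so the irradiated X-ray arrays came to the range of the unirradiated carbon-ion arrays. The step of 1.48 enters the mean H2BC12 change over lines at 3 h after X-rays, 0.34, which was not called.

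Genes that make, process or escort histones were given from lists beside these values. Of 23 measured genes of histone mRNA processing and transcription (24 listed), 0 were called at 1 h after either beam and 0 at 3 h after X-rays, and 4 at 3 h after carbon ions, 3 of them higher. Of all probes, 10.7% (1 h) and 13.4% (3 h) were called after carbon ions and 1.15% and 7.15% after X-rays, the shares to set beside the counts of each list. LSM11, a U7 snRNP protein needed for histone mRNA 3' ends, rose by 0.23 ± 0.16 (SD, n = 6 lines; adjusted p = 0.035), ERI1, an exonuclease of the histone stem-loop, by 0.25 ± 0.16 (adjusted p = 0.030) and UPF1, an RNA helicase of mRNA decay, by 0.21 ± 0.15 (adjusted p = 0.038), with a higher value in 5 of 6 lines. The cell-cycle kinase CDK2 fell by 0.23 (SD 0.16; adjusted p = 0.035). SLBP, the stem-loop binding protein, stood between 0.032 and 0.063 in the 4 comparisons, and NPAT, the coactivator of clustered histone genes, between 0.023 and 0.091, with no call. CCNE2, a cyclin that activates CDK2, stood between -0.016 and 0.10.

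Of 25 measured histone chaperones (26 listed), carbon ions gave 2 calls at 1 h, 1 in each direction, and 4 at 3 h, 3 of them lower, while X-rays gave 0 at 1 h and 1, a lower one, at 3 h. NASP, a chaperone of H1 and of soluble H3 and H4, fell by 0.19 at 1 h (SD 0.12, n = 6 lines; adjusted p = 0.032) and by 0.25 at 3 h after carbon ions (SD 0.083; adjusted p = 0.011), and by 0.22 at 3 h after X-rays (SD 0.15; adjusted p = 0.046), lower in 6 of 6 lines every time. HJURP, which loads the centromeric histone CENPA, fell by 0.55 (SD 0.24; adjusted p = 0.0029) and DAXX, a chaperone of H3.3, by 0.22 (SD 0.080; adjusted p = 0.019) at 3 h after carbon ions. SUPT16H, a subunit of the FACT complex, rose by 0.15 ± 0.045 at 3 h (adjusted p = 0.040) and ZNHIT1, of the complex that inserts H2A.Z, by 0.13 ± 0.062 at 1 h after carbon ions (adjusted p = 0.040). These counts lie near the shares of all probes called.

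Of 22 measured genes of DNA replication (24 listed), 0 were called at 1 h after either beam, 1 was higher at 3 h after carbon ions, and 1 was higher and 1 lower at 3 h after X-rays, beside the 13.4% and 7.15% of all probes called at 3 h. TYMS, the thymidylate synthase that supplies thymidine nucleotides, rose by 0.24 ± 0.11 (SD, n = 6 lines; adjusted p = 0.016) at 3 h after carbon ions and by 0.20 ± 0.085 (adjusted p = 0.028) after X-rays. PRIM1, the DNA primase subunit, fell by 0.27 (SD 0.23; adjusted p = 0.049) at 3 h after X-rays. PCNA, the sliding clamp, stood at -0.27 ± 0.52 and -0.15 ± 0.39 at 3 h after carbon ions and X-rays and was not called.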

How the data were processed

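RNA was extracted with ISOGEN and RNeasy, labelled with biotin and hybridised to CodeLink whole-genome arrays, per the labels' protocols. The deposited values are spot intensity on a linear scale; the sources used here give no software, scaling or genome build for them. Depth does not apply to arrays. Of 54359 probes, 23472 had 1 gene symbol in the annotation given with the arrays. All 64 histone probes matched RefSeq by Entrez identifier. The deposited intensity values were turned into log2. Array medians ranged over 0.38, above a limit of 0.1, so the 32060 probes that passed the filter were then quantile normalized. The order of filter and normalization was chosen after both had been run, to match an earlier description of these data; the other order is given as an alternative. Across lines, limma 3.58.1 in R 4.3.3, with an intensity trend in its variance model, tested 1 value per line. Within lines it tested the 18 arrays, with 1 coefficient per group, on probes with every value in that line. All tests were two-sided, with Benjamini-Hochberg adjustment at 0.05. The tests were checked on simulated data. Classes were described by medians and not tested. Members, classes and gene lists were chosen with earlier results of these data known. A gene is given by its tested probe with the highest mean. Named are called histone genes, or the 3 with the smallest p, all variants, those called after both beams at 3 h in a line, and called genes of the lists with SLBP, NPAT, PCNA, CCNE2 and CDKN1A. Other genes named in single lines or between unirradiated sets were chosen after their values were seen. Alternatives changed scaling, filter, arrays, lines and the replicate block.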

Additional observations from a re-analysis of the deposited data

Results flagged for a closer look

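Among 64 sets of 6 lines checked, 3 held 1 line far from the others, and chance gives about 1 in 20. H2AX at 1 h after carbon ions stood at -0.033 in HMV-II, against 0.099 to 0.17 in the other lines. H2AZ2 (probe 186032) at 1 h after X-rays stood at -0.22 in 92-1, against -0.019 to 0.080 elsewhere. H2BC5 at 3 h after X-rays stood at -0.21 in HMV-I, while the other 5 lines lay between 0.20 and 0.30.

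The carbon-ion change differed from the X-ray change for 1 histone probe at 1 h and 3 at 3 h in limma's test within lines, which was added after the data were seen. At 1 h in MeWo, probe 18112 of H4C4 fell by 0.59 after carbon ions and stood at -0.054 after X-rays, a difference of -0.53 ± 0.13 (SE; adjusted p = 0.040; 1.85% of all probes). At 3 h in HMV-I, H3C4 rose by 0.65 after carbon ions and stood at -0.11 after X-rays, a difference of 0.76 ± 0.12 (SE; adjusted p = 0.0045), where 2.63% of all probes were called; its unirradiated sets differed by -1.60, and the irradiated carbon-ion arrays stayed below those of the X-ray set. In Colo679, H1-10 rose by 0.48 after carbon ions and stood at -0.34 after X-rays, a difference of 0.81 ± 0.19 (adjusted p = 0.048; 0.71% of all probes). In C32TG, H2AX stood at -0.20 after carbon ions and rose by 0.39 after X-rays, a difference of -0.59 ± 0.12 (adjusted p = 0.033; 0.683% of all probes), from unirradiated levels of 3.64 to 3.72 in the carbon-ion set and 2.76 to 2.98 in the X-ray set.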

How the results depend on the processing

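Among the single-gene changes recomputed, those of the histone genes called or with the smallest p-values across lines in each comparison with a beam and a time, none turned its direction. With median centring, carbon ions gave 12 calls at 1 h and 10 at 3 h, X-rays 1 and 8, and the tests within lines 22 at 1 h. The variant medians were then 0.12 and 0.14 after carbon ions and 0.091 and 0.056 after X-rays (1 h, then 3 h), where the median of all probes moved to 0.035, 0.060, 0.018 and 0.044. With the values as deposited there were 10 calls at 1 h after carbon ions, 1 at 3 h after X-rays, and 7 (1 h) and 31 (3 h) within lines, and variant medians after X-rays of 0.071 and -0.0024. Without the filter on level, 3 calls were left at 1 h after carbon ions and 8 within lines at 1 h. With no missing value allowed, X-rays at 3 h gave 1 call and a variant median of 0.053, which 1 probe per gene gave too. Quantile normalization before the filter, added after the data were seen, left 2 calls at 1 h and 1 at 3 h after carbon ions and 6 within lines at 1 h, with replication-dependent medians at 1 h of 0.048 after carbon ions and 0.028 after X-rays. Leaving out 1 replicate number gave 1 to 3 calls at 1 h and up to 5 at 3 h after carbon ions, up to 2 at 3 h after X-rays, and 1 to 6 (1 h) and 14 to 27 (3 h) within lines. Calls at 1 h after carbon ions were 1 without 92-1, Colo679 or MeWo, 2 without HMV-I and 3 without HMV-II. At 3 h they were 1 without 92-1, Colo679 or HMV-I, 5 without C32TG and 0 without HMV-II. X-rays gave 1 call at 3 h without C32TG or HMV-I, and a variant median of 0.058 at 1 h without HMV-II. Deviations of arrays from their group mean correlated between same-numbered arrays of a line at a mean of -0.0074 to 0.068. Between differently numbered arrays the means ran from -0.034 to 0.0048. The same-numbered mean was the higher in every line but 92-1, as in HMV-II (0.068 against -0.034) and Colo679 (0.062 against -0.031). The deviations of a group sum to 0, so a higher same-numbered mean forces a lower mean for the other pairs. The means are thus not independent of each other. For 59 arrays, a majority of the whole series, deviations correlated best with those of their own number. The numbers were not taken as pairs in the main tests, and whether they mark pairs was not tested. A fit over all arrays with the replicate block gave 19 and 21 calls after carbon ions, 3 and 13 after X-rays, 7 between times and 23 between unirradiated sets. Without the block that fit gave 18, 20, 3, 11, 6 and 23, and it treats arrays rather than lines as the unit. Probes near background had missing values on up to 8034 spots of an array, which limits the tests within lines.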
